A study of Homo sapiens with 4 samples.

Results

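The nuclear genes that encode subunits of the mitochondrial respiratory chain and of ATP synthase were followed in WM35 cells given an inhibitor of p300 and CBP. They were chosen by gene symbol alone: NDUFA, NDUFB, NDUFC, NDUFS and NDUFV for complex I, SDHA to SDHD for complex II, UQCR for complex III, COX4I and COX5 to COX8 for complex IV, and ATP5 for complex V, without pseudogenes or the NDUFAF assembly factors. Of 17144 genes with a probe set that carried their symbol alone, 68 met this rule: 30 in complex I, 3 in complex II, 6 in complex III, 16 in complex IV and 13 in complex V. The probe set with the highest mean stood for each gene. Subunits with no such probe set, NDUFS1 and ATP5F1B among them, were not analysed here.

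WM35 is an established human line of melanoma cells of the radial growth phase, and C646 is a small molecule that blocks the acetyltransferase activity of p300 and its relative CBP. Cells of this 1 line, grown in DMEM with 10% serum, received 20 µM C646 or the solvent DMSO at 0.2%, and total RNA was collected 6 h or 24 h later. The 4 groups (DMSO 6 h, C646 6 h, DMSO 24 h and C646 24 h) were each measured on 1 Affymetrix Human Exon 1.0 ST array, from 100 ng of RNA. A difference is the log2 value of the C646 array minus that of the DMSO array of the same time, and with 1 array per group it comes without a replicate and without a test.

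Complexes I to IV pass electrons from NADH and succinate to oxygen through coenzyme Q and cytochrome c, and complexes I, III and IV pump protons out of the matrix as they do so. Complex V, the ATP synthase, lets the protons back and makes ATP. In melanoma and in melanocytes this programme is known to respond to the coactivator PGC-1α, the product of PPARGC1A, which acts with the transcription factors NRF1, GABP (an ETS factor) and YY1 at promoters of such genes.

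The array medians lay between 4.39 and 4.41 on the log2 scale, and values ran from 2.48 to 13.57. Across all 27631 probe sets, correlations between arrays were 0.976 to 0.979 where C646 24 h was one of the pair and 0.991 to 0.996 otherwise. All 24 h differences rest on that 1 array. All 6 melanocyte lineage markers with a probe set of their own were above the filter on low values described next, against 1 of 3 keratinocyte, 2 of 4 fibroblast, 0 of 3 leukocyte and 0 of 3 endothelial markers. The summed log2 values of the melanocyte list were 47.5 with DMSO and 49.6 with C646 at 6 h. At 24 h they were 46.1 with DMSO and 49.9 with C646. This sum was thus higher with C646 at both times, though TYRP1 was lower at 6 h (6.33 with DMSO and 6.06 with C646). The sums of the fibroblast list ranged over the arrays from 16.5 to 17.1. The part of either list in the values of the subunits was not tested.

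A gene was followed further when the mean of its 4 log2 values was at or above 3.96, the 40th percentile over all probe sets. Of the 68 subunit genes, 61 passed, of 10707 genes in all. The 7 below it were NDUFB11 of complex I, UQCRB of complex III, and COX4I2, COX6B2, COX7A1, COX7B2 and COX8C of complex IV. The last 5 are paralogs made mainly in lung, muscle or testis, and their means of 3.33 to 3.72 lay close to background. NDUFB11 and UQCRB are made in most tissues, but their probe sets had means of 3.54 and 3.45, as low as those of the paralogs. COX6A2, the heart and muscle form of COX6A, passed at a mean of 4.11 only because of the C646 arrays: 3.92 with DMSO and 4.25 with C646 at 6 h, and 3.83 with DMSO and 4.45 with C646 at 24 h. Its difference had to be upward by this filter and is given as a description.

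At 24 h the subunits were mostly higher with C646, by small amounts. In bulk RNA, a difference in every cell and one in a part of the cells cannot be told apart. Their median difference was 0.21 against 0.030 over all genes, and 57 of 61 lay above 0 (93.4%, against 55.1% of all genes). At least 1.2-fold, a log2 difference of 0.26, was reached upward by 27 of 61 (44.3%), while 19.4% of all genes were that much higher. None was 1.2-fold lower, while 15.0% of all genes were. At 1.5-fold the count was 2 upward, COX5B and COX6A2, and 0 downward, against 4.36% and 5.81% of all genes. The upward share, 3.28%, was near the background, and COX6A2 is the gene that passed the filter through its C646 values. Against the mean of both DMSO arrays the number at least 1.2-fold higher was 18 of 61, beside 18.2% of all genes, and the median was 0.19. With both DMSO arrays also required to reach the filter level, a choice made after the data were seen, COX6A2 dropped out. Then 26 of 60 were at least 1.2-fold higher, against 19.1% of all genes.

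At 6 h the differences were smaller. The median was 0.085, against 0.0029 over all genes, with 46 of 61 above 0 (75.4%, against 50.7% of all genes). At least 1.2-fold higher were 5 of 61 (8.20%, against 7.66% of all genes): COX6A2, UQCRQ, COX5B, NDUFS7 and COX8A. At least 1.2-fold lower were 2 of 61 (3.28%, against 7.34% of all genes), NDUFA5 and ATP5PB. The shares past 1.2-fold at 6 h were thus near or below those of all genes. The plot of cumulative shares shows the subunits to the right of all genes over most of the range at 24 h and by less at 6 h.

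**Figure D1:**
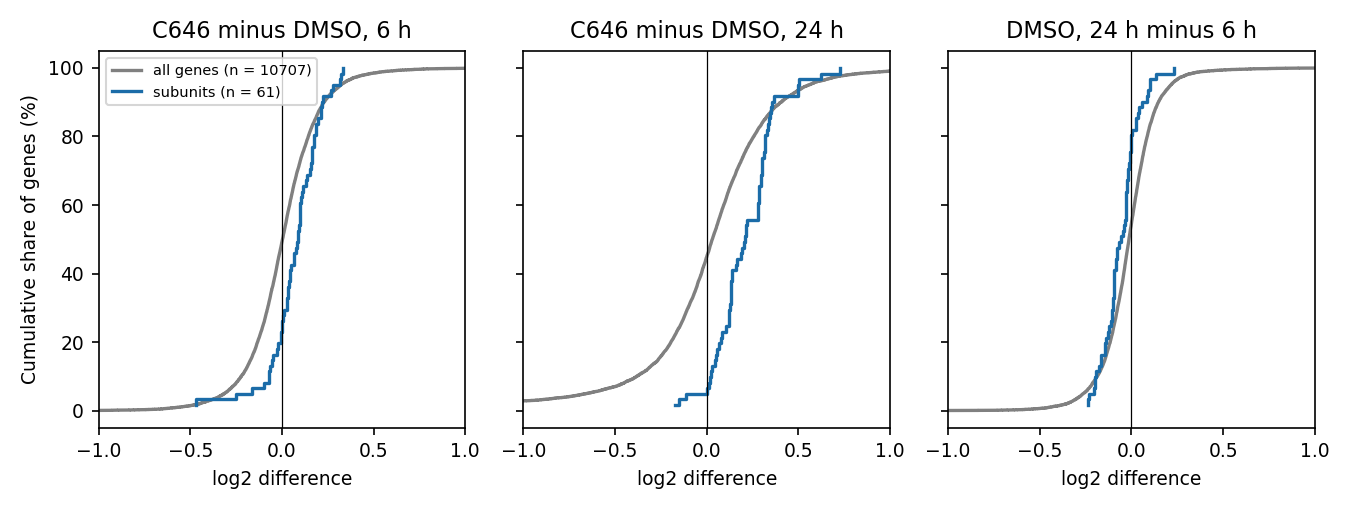
Cumulative share of genes (%, y axis) by log2 difference (x axis, shown from -1 to 1) for the 61 subunit genes in blue and all 10707 genes in grey, in 3 comparisons of 1 array with 1 array. At 24 h the blue curve lies right of the grey one around a median of 0.21 against 0.030, and ends at 0.73 where the grey curve runs on; between the DMSO arrays it lies slightly left.

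Between the DMSO arrays the subunits were slightly lower at 24 h than at 6 h, with a median of -0.055 against -0.014 over all genes. Below 0 were 48 of 61, and above 0 were 12 (19.7%, against 45.3% of all genes). No subunit differed 1.2-fold in either direction, where 2.84% of all genes were that much higher and 4.94% that much lower. This comparison shares an array with each C646 comparison, so the lower DMSO array of 24 h also enters the 24 h differences. The C646 value of 24 h lay above both DMSO values for 51 of 61 subunits (83.6%, against 47.1% of all genes) and above all 3 other arrays for 37 (60.7%, against 38.2%). The C646 value of 6 h lay above both DMSO values for 44 (72.1%, against 41.3%).

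Across both times, 44 subunits were higher with C646 at 6 h and at 24 h (72.1%, against 35.3% of all genes). A further 13 were lower at 6 h and higher at 24 h (21.3%, against 19.8% of all genes), a share near the background. The reverse held for 2 (3.28%, against 15.4%), and 2, NDUFA5 and UQCRC1, were lower at both (3.28%, against 29.4%). The 24 h difference exceeded the 6 h difference for 50 of 61 (82.0%, against 54.8% of all genes), and the median excess was 0.13, against 0.028 over all genes. Against the mean of both DMSO arrays the excess was 0.062, with 39 of 61 above 0 (63.9%, against 52.7% of all genes). Whether the effect differed between the times cannot be tested with 4 arrays. In the limma fit of the 4 arrays with a term for treatment and a term for time, whose 1 residual degree of freedom measures the disagreement between the times, 0 of 16579 probe sets passed a Benjamini-Hochberg adjusted p of 0.05. At an unadjusted p under 0.05 there were 1828 probe sets (11%) and 2 of 61 subunits (3.28%), a smaller share. These were COX6A2, with an effect of 0.48 ± 0.10 (SE), and COX5B, with 0.52 ± 0.15 (SE), both at an adjusted p of 0.448. COX6A2 is no independent case here, since the filter fixed its direction. Without the C646 array of 6 h the fit holds 1 C646 array, so only effects are given. The 3 largest among the subunits were 0.71 for COX5B, 0.57 for COX6A2 and 0.50 for COX6B1. Of these, COX6A2 had again passed the filter through its C646 values alone. That fit sets the 24 h array against both DMSO arrays and assumes that the lone C646 array varies as they did.

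The medians of the complexes at 24 h were 0.21 for complex I (29 genes), 0.12 for complex II (3), 0.19 for complex III (5), 0.28 for complex IV (11) and 0.21 for complex V (13). Within each complex except complex II, the members spread more widely than these medians, and no difference between complexes was tested. At 6 h the medians were 0.095, 0.042, 0.11, 0.085 and 0.064 in the same order. The counts at least 1.2-fold higher at 24 h were 13 of 29, 0 of 3, 2 of 5, 6 of 11 and 6 of 13, beside 19.4% of all genes. The counts of complexes II and III, over 3 and 5 genes, are too small to be read against that share. The 6 of complex IV include COX6A2, which passed the filter only through its C646 values. The same gene enters that complex's median of 0.28 at 24 h. With the genes below the filter included, the median of complex IV was 0.11 over its 16 genes, 5 of them the paralogs near background. With probe sets placed on each gene's own chromosome, described below, complexes I, II and IV each had a median of 0.28 at 24 h. Between the DMSO arrays the medians of the complexes ran from -0.094 for complex II to -0.029 for complex III.

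**Figure D2:**
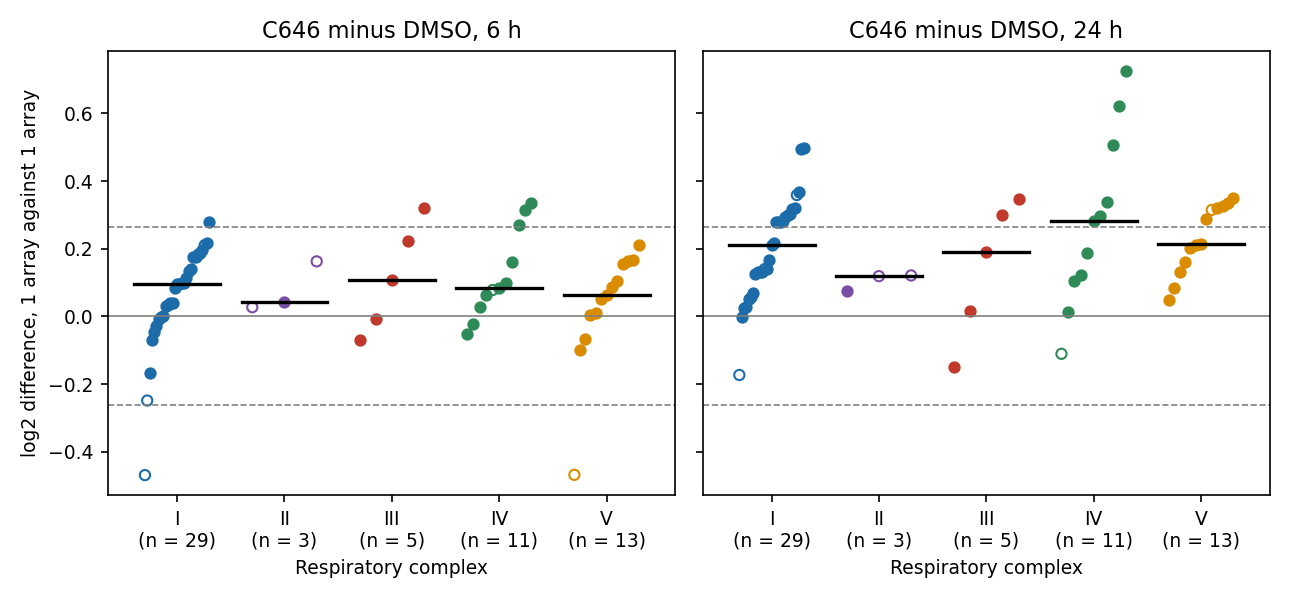
Log2 difference, C646 minus DMSO (y axis), of each subunit above the filter by complex (x axis) at 6 h and 24 h, 1 array against 1 array, sorted within a complex. Black bars are medians, dashed lines mark 1.2-fold, and open circles are genes whose probe set was not placed on the gene's own chromosome; at 24 h no point lies under the lower dashed line and 27 lie above the upper one.

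The promoters were examined because NRF1, ETS and YY1 sites are known features of such genes. The windows, from RefSeq on GRCh38.p14, span 250 bases before to 50 after each gene's start, and 53 of the 61 genes had one. The letters searched on both strands were GCATGCGC (NRF1), CCGGAAGT (ETS) and AAGATGGC (YY1); the first and its reverse complement can overlap each other. NRF1 letters were found in 10 of 53 promoters (18.9%, against 4.26% of 15842 protein-coding genes), ETS letters in 6 (11.3%, against 6.19%) and YY1 letters in 9 (17.0%, against 3.91%). Any of the 3 was found in 20 of 53 (37.7%, against 13.2%). The protein-coding genes were not limited to those above the filter, unlike the subunits. The part of expression level in these shares was not tested. The 24 h difference had a median of 0.28 over the 10 genes with NRF1 letters and 0.19 over the 43 without, 0.32 and 0.20 for ETS (6 and 47), and 0.22 and 0.20 for YY1 (9 and 44). At 6 h the medians with and without the letters were 0.096 and 0.078 for NRF1, 0.22 and 0.078 for ETS, and -0.0073 and 0.096 for YY1, so that for YY1 the order was the opposite of that at 24 h. These medians were not tested, the groups with letters are small, and genes without a match differed as well.

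The 250 bases before the start are printed 5′ to 3′ on the gene's strand, with matched letters in capitals, for 7 genes chosen after their values were seen. COX5B had the largest difference of all subunits and holds both NRF1 and ETS letters. COX8A and UQCRQ, 1.2-fold higher at 6 h, hold ETS letters, while ATP5MC2, ATP5F1C and ATP5PF, 1.2-fold higher at 24 h, hold NRF1 letters, in ATP5PF with YY1 letters as well. In ATP5F1C the NRF1 letters of both strands overlap. COX6B1, the third largest at 24 h, has no match in the window. Letters were also found for genes not printed that were not 1.2-fold higher at 24 h. Among them were NDUFA6 (0.028) and NDUFS6 (0.13) with NRF1 letters, and UQCRC1 (-0.15) with YY1 letters.
COX5B (chr2:97645812-97646061, plus strand): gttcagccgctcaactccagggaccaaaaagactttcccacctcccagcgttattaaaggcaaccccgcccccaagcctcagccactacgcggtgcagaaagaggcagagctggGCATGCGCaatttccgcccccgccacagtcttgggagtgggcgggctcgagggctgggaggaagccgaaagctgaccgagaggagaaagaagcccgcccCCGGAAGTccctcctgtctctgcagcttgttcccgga
COX8A (chr11:63974370-63974619, plus strand): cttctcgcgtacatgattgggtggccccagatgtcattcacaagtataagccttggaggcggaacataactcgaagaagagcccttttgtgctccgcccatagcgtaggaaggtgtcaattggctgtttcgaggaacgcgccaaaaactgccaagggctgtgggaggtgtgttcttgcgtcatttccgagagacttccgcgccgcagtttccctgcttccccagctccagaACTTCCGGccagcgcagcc
UQCRQ (chr5:132866392-132866641, plus strand): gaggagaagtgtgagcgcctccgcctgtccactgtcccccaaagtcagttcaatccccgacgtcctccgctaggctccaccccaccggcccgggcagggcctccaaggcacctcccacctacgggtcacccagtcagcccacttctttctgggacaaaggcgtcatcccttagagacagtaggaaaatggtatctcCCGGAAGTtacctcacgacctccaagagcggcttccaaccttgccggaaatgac
ATP5MC2 (chr12:53676084-53676333, minus strand): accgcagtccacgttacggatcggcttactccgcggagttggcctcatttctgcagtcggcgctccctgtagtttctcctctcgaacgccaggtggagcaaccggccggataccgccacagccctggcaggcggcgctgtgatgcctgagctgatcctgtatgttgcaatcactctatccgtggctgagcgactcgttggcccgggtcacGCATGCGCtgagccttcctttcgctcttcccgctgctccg
ATP5F1C (chr10:7787927-7788176, plus strand): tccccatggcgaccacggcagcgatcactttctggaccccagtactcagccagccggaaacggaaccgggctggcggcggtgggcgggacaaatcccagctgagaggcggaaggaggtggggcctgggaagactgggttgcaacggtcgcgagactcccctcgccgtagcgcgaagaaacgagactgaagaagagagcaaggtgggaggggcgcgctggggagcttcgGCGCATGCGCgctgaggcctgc
ATP5PF (chr21:25735055-25735304, minus strand): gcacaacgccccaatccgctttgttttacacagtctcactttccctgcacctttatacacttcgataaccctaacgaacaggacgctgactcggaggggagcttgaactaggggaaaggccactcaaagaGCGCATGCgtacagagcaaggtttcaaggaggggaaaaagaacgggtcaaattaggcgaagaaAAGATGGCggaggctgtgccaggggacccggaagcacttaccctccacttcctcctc
COX6B1 (chr19:35648073-35648322, plus strand): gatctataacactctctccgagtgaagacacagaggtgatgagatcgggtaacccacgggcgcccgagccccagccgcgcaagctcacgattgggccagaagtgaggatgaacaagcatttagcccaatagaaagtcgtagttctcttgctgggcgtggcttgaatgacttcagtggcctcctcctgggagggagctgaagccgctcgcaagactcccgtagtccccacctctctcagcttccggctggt

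Complex I takes electrons from NADH. Of the genes for its catalytic core, which carry the flavin and the iron-sulphur clusters, 5 were measured, and all 5 were higher with C646 at both times, with medians of 0.13 at 6 h and 0.28 at 24 h. NDUFV2, which holds an iron-sulphur cluster next to the flavin, read 5.89 with DMSO and 5.92 with C646 at 6 h, and 5.69 with DMSO and 6.18 with C646 at 24 h. Its C646 array of 24 h stood above the other 3, and its difference was 0.035 at 6 h and 0.50 at 24 h, beside a DMSO value lower by 0.20 at 24 h than at 6 h. NDUFV1, the flavin subunit, differed by 0.13 and 0.28. NDUFS3 read 7.23 with DMSO and 7.45 with C646 at 6 h, and 7.03 with DMSO and 7.33 with C646 at 24 h, so that its highest array was C646 at 6 h. NDUFS7, a subunit at the site where coenzyme Q binds, was 1.2-fold higher at 6 h only, with 0.28 and then 0.22, and NDUFS8 differed by 0.10 and 0.17.

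The 24 accessory subunits of complex I had medians of 0.063 and 0.14, with 10 at least 1.2-fold higher at 24 h (41.7%, against 19.4% of all genes). Their lower median than that of the core depends in part on the probe sets used. NDUFA5, NDUFB3 and NDUFB4 enter with probe sets not placed on their own chromosomes, and the core has none such. On own chromosomes these genes differed by 0.52, 0.54 and 0.57 at 24 h, and the median of all complex I was 0.28. Core and accessory subunits were not tested against each other. NDUFA7 read 5.85 with DMSO and 6.03 with C646 at 6 h, and 5.69 with DMSO and 6.18 with C646 at 24 h, and both C646 arrays stood above both DMSO arrays. NDUFA2 read 6.56 with DMSO and 6.74 with C646 at 6 h, and 6.47 with DMSO and 6.84 with C646 at 24 h, with the same order. The other 8 past 1.2-fold at 24 h were NDUFA1, NDUFA8, NDUFA9, NDUFA11, NDUFB1, NDUFB2, NDUFB4 and NDUFB9, with differences of 0.28 to 0.36. Of these, NDUFA11 and NDUFB2 differed at 6 h by -0.0013 and 0.0011. At the low end at 24 h, NDUFB7 differed by 0.14 at 6 h and by -0.0004 at 24 h, and NDUFA10 differed by 0.041 and 0.025. NDUFA5 and NDUFB3, the lowest at 6 h, are described with the other probe sets of uncertain place.

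**Figure D3:**
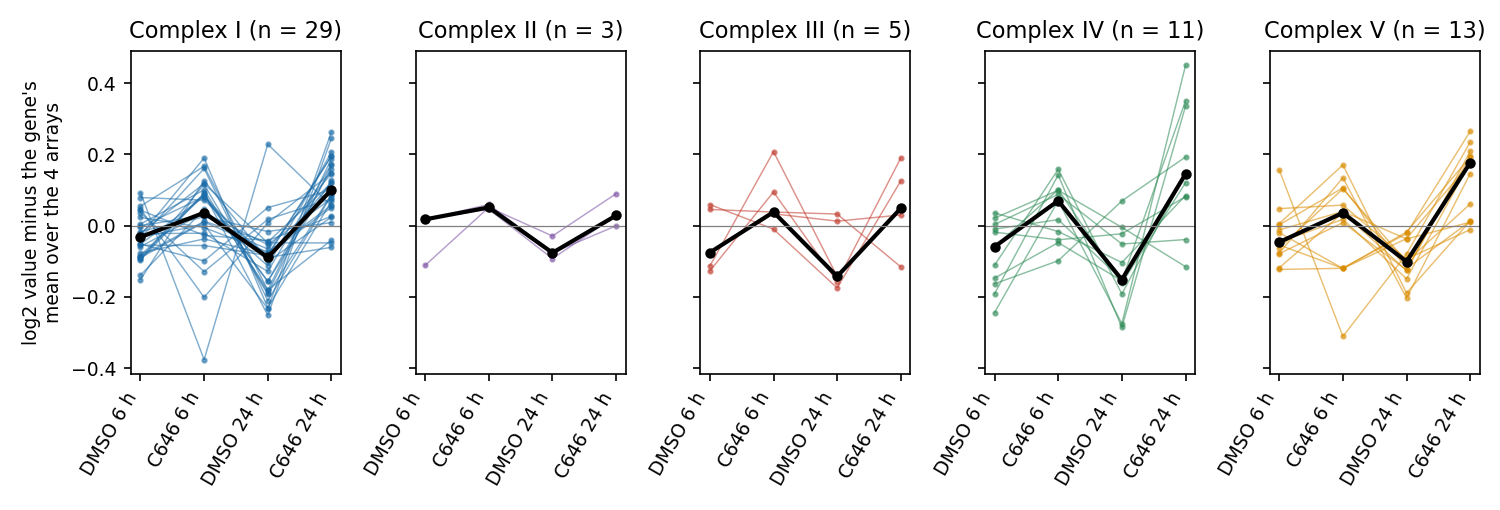
Log2 value of each subunit minus its own mean over the 4 arrays (y axis) on each array (x axis), by complex; thin lines are genes and the thick black line is their median. In all 5 complexes the median is higher on the C646 array than on the DMSO array of the same time, and the lowest median is on the DMSO array of 24 h.

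Complex II oxidises succinate and is also an enzyme of the TCA cycle. None of its 3 measured genes differed 1.2-fold at either time. SDHA, the flavin subunit, read 7.79 with DMSO and 7.83 with C646 at 6 h, and 7.69 with DMSO and 7.77 with C646 at 24 h. Its 4 values lay within a narrow band, and the differences were 0.042 and 0.076. The membrane anchors SDHC and SDHD differed by 0.027 and 0.16 at 6 h and by 0.12 and 0.12 at 24 h on the probe sets with the highest mean, and by more at 24 h on those of their own chromosomes.

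Complex III passes electrons from coenzyme Q to cytochrome c. UQCRC2, a core protein on its matrix side, read 8.05 with DMSO and 8.28 with C646 at 6 h, and 8.02 with DMSO and 8.37 with C646 at 24 h, both C646 arrays above both DMSO arrays. UQCRQ, a small subunit of the membrane part, had the largest difference at 6 h of complex III: it read 7.40 with DMSO and 7.72 with C646 at 6 h, and 7.37 with DMSO and 7.56 with C646 at 24 h, so its difference was smaller at 24 h (0.19) than at 6 h (0.32). UQCR11 differed by -0.069 at 6 h and 0.30 at 24 h, with a DMSO value that was -0.23 at 24 h relative to 6 h. UQCRC1, the other core protein, was lower with C646 at 24 h (-0.15), and UQCR10 differed by 0.11 and 0.017. Both core proteins thus lay at the opposite ends of the complex at 24 h.

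Complex IV, cytochrome c oxidase, reduces oxygen. COX5B, a zinc-binding subunit on the matrix side, had the largest 24 h difference of all subunits. It read 6.24 with DMSO and 6.55 with C646 at 6 h, and 6.20 with DMSO and 6.93 with C646 at 24 h. Both DMSO arrays lay close together, the C646 array of 6 h above them and that of 24 h highest, with differences of 0.31 and 0.73 (1.65-fold). COX6B1, on the side that meets cytochrome c, read 7.37 with DMSO and 7.47 with C646 at 6 h, and 7.36 with DMSO and 7.87 with C646 at 24 h: only the C646 array of 24 h stood apart. COX8A, a small membrane subunit, read 8.56 with DMSO and 8.83 with C646 at 6 h, and 8.47 with DMSO and 8.81 with C646 at 24 h, with both C646 arrays above both DMSO arrays. COX6C and COX7A2 differed by 0.30 and 0.28 at 24 h, but the mean of all COX7A2 probe sets differed by -0.11.

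COX4I1, the common form of COX4, differed by -0.052 and 0.19, and COX5A, its neighbour in the assembled enzyme, by -0.021 and 0.10. COX7A2L, a factor of supercomplexes that joins complexes III and IV, differed by 0.085 and 0.013, and COX7C by 0.078 and -0.11. COX7B (0.065 and 0.12) was higher between the DMSO arrays by 0.23, the 1 of 11 complex IV genes above the filter that was higher there on its highest-mean probe set. COX6A2 differed by 0.33 and 0.62 at levels near the filter. For the 5 restricted paralogs below the filter the differences ran from -0.068 for COX7A1 to 0.18 for COX4I2 at 6 h, and from -0.18 for COX7B2 to -0.055 for COX7A1 at 24 h.

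Complex V consists of the F1 head, which makes ATP, the c ring, which turns with the protons, and the stalks that hold them. All 13 measured genes were above 0 at 24 h, from 0.047 for ATP5MGL to 0.35 for ATP5F1D. Of the head, ATP5F1D, in the central stalk, read 6.26 with DMSO and 6.48 with C646 at 6 h, and 6.14 with DMSO and 6.49 with C646 at 24 h, and ATP5F1C, the γ subunit, 6.19 with DMSO and 6.28 with C646 at 6 h, and 6.15 with DMSO and 6.47 with C646 at 24 h. In both genes the C646 arrays stood above the DMSO arrays. ATP5F1A, the α subunit, differed by only 0.010 and 0.083.

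The 3 genes ATP5MC1, ATP5MC2 and ATP5MC3 encode the same mature c-ring protein. They differed at 24 h by 0.20, 0.33 and 0.16, and at 6 h by 0.16, 0.064 and 0.17. Of the peripheral stalk, ATP5PD read 6.59 with DMSO and 6.74 with C646 at 6 h, and 6.58 with DMSO and 6.92 with C646 at 24 h, with both C646 arrays above both DMSO arrays. ATP5PF and ATP5PO differed by 0.29 and 0.21 at 24 h and by 0.0033 and -0.10 at 6 h. ATP5IF1, the inhibitor that stops the enzyme from running backwards, differed by 0.10 and 0.13.

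The lowest 6 h values came from probe sets of a particular kind. Probe set numbers on this array run along the chromosomes, and those of 7 subunits, NDUFA5, NDUFB3, NDUFB11, SDHC, SDHD, COX7C and ATP5PB, lay among numbers of another chromosome, while that of NDUFB4 could not be placed. Over all genes' probe sets that could be placed, 6.95% lay so. Whether such probe sets measure near-identical copies elsewhere in the genome was not tested, and the values of these genes are uncertain. For 6 of the 7 and for NDUFB4, a probe set on the gene's own chromosome gave a second value.

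ATP5PB, a subunit of the peripheral stalk, read 9.39 with DMSO and 8.93 with C646 at 6 h, and 9.16 with DMSO and 9.47 with C646 at 24 h, a difference of -0.47 and then 0.31. On its own chromosome it read 6.65 with DMSO and 6.85 with C646 at 6 h, and 6.44 and 6.85 at 24 h, a difference of 0.20 and 0.41. Its probe sets thus gave opposite directions at 6 h. NDUFA5 read 6.57 with DMSO and 6.10 with C646 at 6 h, and 6.71 with DMSO and 6.53 with C646 at 24 h, and on its own chromosome 5.48 and 5.83 at 6 h and 5.40 and 5.91 at 24 h. Its differences were -0.47 and -0.17 on the first and 0.35 and 0.52 on the second.

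NDUFB3 differed by -0.25 and 0.14, but by 0.18 and 0.54 on its own chromosome. NDUFB4 differed by 0.21 and 0.36, and by 0.21 and 0.57. SDHC gave 0.12 and 0.28 on its own chromosome, SDHD 0.11 and 0.41, and COX7C 0.16 and 0.18. All 7 second values were above 0 at both times. With probe sets on own chromosomes only, 61 subunits passed the filter, 31 of them at least 1.2-fold higher at 24 h (50.8%, against 19.5% of all genes), none 1.2-fold lower at either time, and the medians were 0.0997 at 6 h and 0.28 at 24 h. The median of complex II at 24 h was then 0.28 in place of 0.12, and that of complex I 0.28 in place of 0.21. Complexes III, IV and V kept their medians of 0.19, 0.28 and 0.21.

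**Figure D4:**
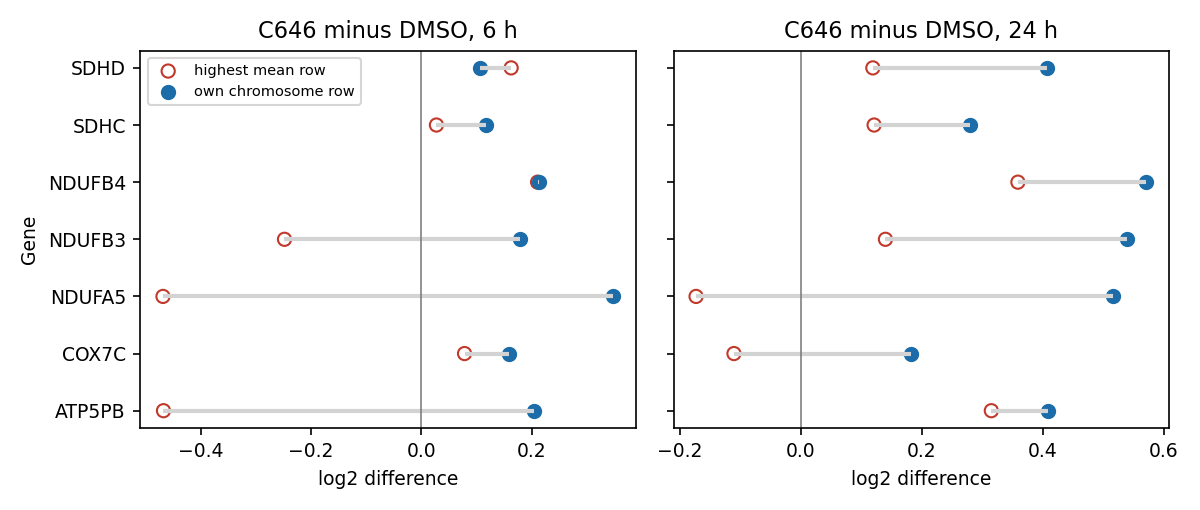
Log2 difference, C646 minus DMSO (x axis), at 6 h and 24 h for the 7 genes (y axis) above the filter with a highest-mean probe set not placed on their own chromosome (open red) and a second one on it (filled blue), joined by a line. The x axes differ between panels; the blue points lie above 0 in all 14 cases, and the red ones below 0 in 3 cases at 6 h and 2 at 24 h.

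Other genes of the pathway were taken from lists by function. Of 59 assembly factors listed, which build the complexes but are not part of them, 46 were above the filter, with medians of 0.046 at 6 h and 0.14 at 24 h, 14 at least 1.2-fold higher at 24 h (30.4%, against 19.4% of all genes) and 2 lower (4.35%, against 15.0%). COA4, a factor of complex IV, and OXA1L differed by 0.35 and 0.30 at 6 h and by 0.77 and 0.64 at 24 h. COA7 and FOXRED1, factors of complexes IV and I, differed by -0.47 and -0.33 at 24 h. Of 17 genes for cytochrome c, coenzyme Q and the electron transfer flavoprotein, 15 were above the filter, with a median of 0.11 at 24 h and 6 higher and 4 lower by 1.2-fold (40% and 26.7%, against 19.4% and 15.0% of all genes). COQ5, a methyltransferase of coenzyme Q synthesis, differed by 0.72, HCCS, which attaches haem to cytochrome c, by 0.42, and PDSS1, which makes the side chain of coenzyme Q, by -0.49. CYCS, cytochrome c itself, differed by -0.45 at 24 h, and by -0.25 on its own chromosome. CYC1, the cytochrome subunit of complex III, which the symbol rule does not cover, differed by -0.028 and -0.28, so that 1 subunit outside the rule was 1.2-fold lower at 24 h and is counted among the 4.

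Of 19 listed genes of the TCA cycle and pyruvate dehydrogenase, 16 were above the filter. Their medians were -0.025 at 6 h and 0.11 at 24 h, with 3 higher and 3 lower by 1.2-fold at 24 h (18.8% each). IDH3G and IDH3B, subunits of the NAD-dependent isocitrate dehydrogenase, differed by 0.49 and 0.40, whereas IDH2, the NADP-dependent enzyme, differed by -0.62. SUCLG2 differed by -0.56, and by -0.12 on its own chromosome. The TCA counts were near the shares of all genes, 19.4% higher and 15.0% lower. No difference between the lists and the subunits was tested.

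Of 15 listed regulators of mitochondrial genes, 10 were above the filter, with medians of 0.12 at 6 h and 0.039 at 24 h, and 4 higher and 0 lower by 1.2-fold at 24 h (19.4% and 15.0% of all genes). PPARGC1A read 4.46 with DMSO and 5.82 with C646 at 6 h, and 4.50 with DMSO and 5.58 with C646 at 24 h, higher by 1.37 and 1.08, more than any subunit at either time. GABPA, a subunit of GABP, differed by 0.17 and 0.50, on a probe set numbered among those of another chromosome. MTERF1 and TFB2M, which act on mitochondrial transcription, differed by 0.34 and 0.27 at 24 h. NRF1 itself differed by -0.042 and -0.088. TFAM, which packs mitochondrial DNA and starts its transcription, differed by -0.27 and -0.22. PPRC1, POLRMT, TWNK and ESRRA lay between -0.18 and 0.041 at 24 h.

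**Figure D5:**
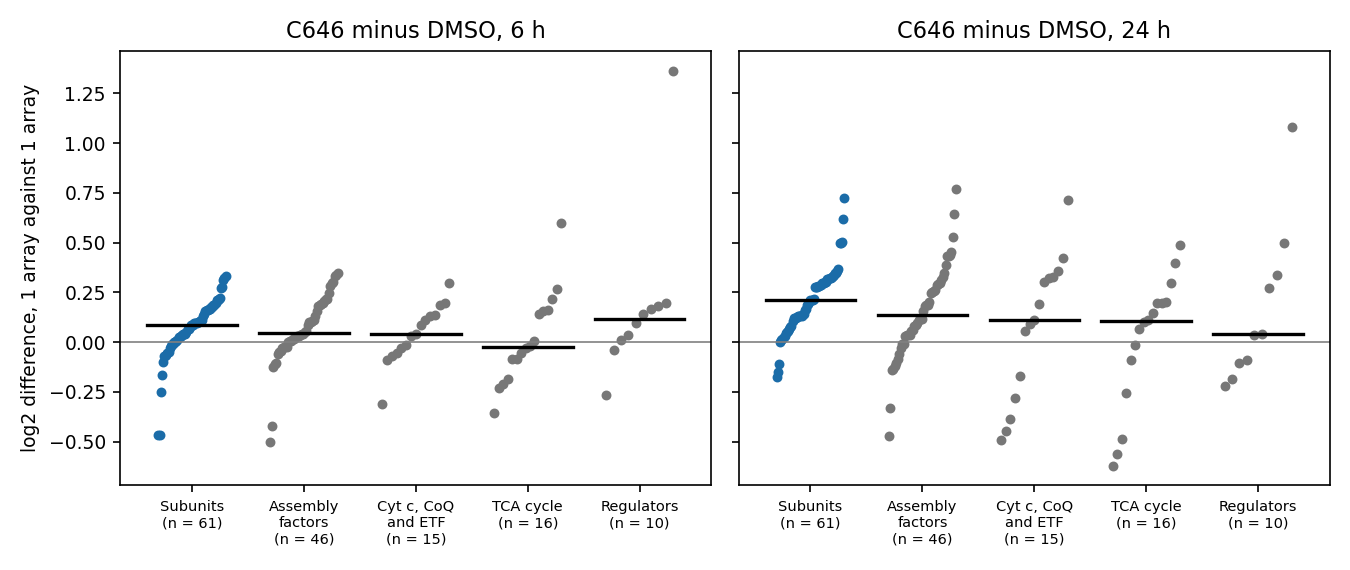
Log2 difference, C646 minus DMSO (y axis), at 6 h and 24 h for the 61 subunits (blue) and for 4 lists of other genes (grey, x axis), 1 array against 1 array; black bars are medians. The highest point of the regulators is PPARGC1A at both times, and all 4 grey lists hold points at 24 h below the lowest subunit, NDUFA5 at -0.17.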

How the data were processed

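RNA of 4 samples of WM35 cells, 1 per treatment and time, was measured on 1 array each, so the number of arrays limits the precision. The values are gene-level log2 expression as the authors deposited them. The log2 scale was read from their range, with summarisation and normalisation not given in the sources used here. Build hg19 is named per the submitters' processing notes, and no coordinates of it are used. The platform annotation named 1 gene on 20429 probe sets, more than 1 on 4232 and no gene on 2970. Of the first, 20362 were matched to a current gene symbol through Entrez identifiers, whether or not the symbol had changed. Probe sets with several symbols were not named.

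Differences, counts past 1.2-fold and medians were computed with Python 3.11.15, pandas 2.3.3 and numpy 2.4.6, and the model over both times with limma 3.58.1 in R 4.3.3, after filtering at the 40th percentile of the mean. A probe set was placed by the chromosomes of the 20 named neighbours on each side of its number. The scripts were tested on simulated data.

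The genes, lists, filter and rules were chosen with earlier results of these data known. Named were, per complex, the 3 highest and 3 lowest at 24 h and the 2 highest and 2 lowest at 6 h. Also named were all subunits that differed 1.5-fold, complex II, the paralogs of restricted tissues, all regulators, and the 2 highest and 2 lowest at 24 h of each other list. The remaining subunits named were chosen after their values were seen. Alternatives covered the filter, the probe set per gene, the scale, the control, the fold and the arrays in the fit.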

Additional observations from a re-analysis of the deposited data

Results flagged for a closer look

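For ATP5PB, a stalk subunit of ATP synthase, the C646 arrays lay on opposite sides of their DMSO arrays at 6 h and 24 h, and the 24 h difference exceeded the 6 h difference by 0.78. For COX20, an assembly factor of complex IV, the same held, with an excess of 1.03. With 1 array per group neither difference between the times was tested. Both probe sets carry numbers among those of another chromosome. On their own chromosomes both genes were higher with C646 at both times: COX20 by 0.086 at 6 h and 0.67 at 24 h, ATP5PB by 0.20 and 0.41.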

How the results depend on the processing

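With 1 array per group the differences have no error. No paired analysis was possible because each group is 1 array and the labels carry no replicate numbers, beyond the limma fit, whose time term sets C646 against DMSO within each time. Over all settings run, the median over all subunits above the filter stayed above 0 at 6 h and at 24 h. At 24 h, complex II had a median of 0.28 with probe sets of own chromosomes and 0.066 against both DMSO arrays; complex III 0.10 with no filter and 0.10 at the 80th percentile; complex IV 0.11 with no filter and 0.19 with the mean of a gene's probe sets. The number higher at 24 h was 13 of 29 at the 80th percentile (44.8%, against 23.6% of all genes) and 2 at 1.5-fold (against 4.36% of all genes). The number lower was 2 at 1.1-fold, where 2743 of 10707 genes were lower. At 6 h, the mean of a gene's probe sets gave 0.038 for complex I and 0.072 for complex II, which had 0.11 with own chromosomes and 0.089 against both DMSO arrays. Complex III had 0.17 at the 80th percentile and 0.065 against both DMSO arrays, and complex V 0.11 against both. The number higher at 6 h was 3 of 57 at the 60th and 3 of 29 at the 80th percentile, against 8.29% and 8.16% of all genes. It was 20 of 61 at 1.1-fold and 0 at 1.5-fold, against 20.9% and 0.94%. The number lower was 0 with the mean of probe sets, 0 with own chromosomes (against 6.38% of all genes), 4 at 1.1-fold and 0 at 1.5-fold. Of 10707 genes, 2080 were lower at 1.1-fold and 96 at 1.5-fold. Between the DMSO arrays the median was -0.034 after quantile normalization and -0.036 after median centring. After quantile normalization 1 was higher, against 3.39% of all genes. At 1.1-fold 1 was higher and 13 lower, where 11.1% of all genes were higher and 1729 of 10707 lower. The TCA list had -0.038 at 6 h and the regulators 0.0002 at 24 h with the mean of probe sets, and the cytochrome c and coenzyme Q list 0.062 at 6 h with no filter. In the limma fits without 1 array, the median effect of the subunits ran from 0.098 without C646 at 24 h to 0.19 without C646 at 6 h. Of subunit values at least 1.2-fold, ATP5PB (0.20) and NDUFA5 (0.35) changed sign at 6 h with own chromosomes, and COX7A2 (-0.11) at 24 h with the mean of its probe sets. Smaller values changed sign as well. With own chromosomes these included NDUFB3 at 6 h (-0.25 to 0.18), NDUFA5 at 24 h (-0.17 to 0.52) and COX7C at 24 h (-0.11 to 0.18). With the mean of probe sets they included ATP5F1A at 24 h (0.083 to -0.059). Where the setting itself does not show it, as fewer genes or another probe set do, the cause was not tested.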

Other observations

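Probe sets whose annotation lists a respiratory chain or ATP synthase gene together with other symbols enter no comparison, and their genes are not named. Of these, 30 were above the filter. Their median difference between C646 and DMSO was 0.047 at 6 h and 0.19 at 24 h. At 24 h, 25 of 30 were above 0 (83.3%, against 55.1% of all genes). By 1.2-fold, 8 were higher (26.7%, against 19.4%) and 2 lower (6.67%, against 15.0%). The 24 h differences ran from -0.89 to 0.54.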
